A study of Mus musculus with 8 samples.

Results

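The genes described here encode the machinery that moves acid and bicarbonate in the kidney cortex. They comprise every listed subunit of the vacuolar proton pump (V-ATPase, symbols starting with Atp6v0 or Atp6v1), the numbered carbonic anhydrases (Car genes), the H,K-ATPase alpha subunits Atp4a and Atp12a, the transcription factor Foxi1 and the ammonia channels Rhbg and Rhcg. They were taken from the count table by matching symbols, which 44 of its 22609 genes did. Of these, 37 had at least 10 read pairs in 4 or more libraries, 36 of them in all 8 libraries, and the same 37 passed the filter on low counts of the test.

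The V-ATPase is a rotary pump. Its cytosolic V1 sector hydrolyses ATP, and the turning rotor drives protons through the membrane-bound V0 sector. Nearly all cells carry the pump in lysosomes and endosomes, proximal tubule cells also carry it at the brush border, and acid-secreting intercalated cells of the collecting duct insert it in the plasma membrane, using isoforms such as B1 and a4 that few other cells make. Carbonic anhydrases interconvert carbon dioxide and bicarbonate, which supplies the pump with protons inside the cell and speeds bicarbonate recovery at the tubule surface.

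Renal cortex from male C57BL6 mice without treatment was compared between 4 aged and 4 young animals. The labels give 30 months for the aged and 5 months for the young mice, and the study's methods give a somewhat older mean for the aged group. Each mouse gave a single library of total RNA depleted of ribosomal RNA, in which stranded read pairs were counted per gene. In whole cortex, fewer cells of a type and less RNA per cell cannot be told apart.

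Between 14820804 and 19821429 read pairs fell on genes in each library, of which 0.331% to 0.423% belonged to the 44 genes. At these depths 3 pairs, taken as the floor for counting error, were worth 0.147 to 0.204 CPM, where CPM are the counts of a gene scaled to a common library total. All 10 proximal tubule markers examined were measured, with summed levels of 20300 to 24500 CPM in 7 mice and 10400 CPM in aged mouse 1, which stood apart in this respect. Much of the sum came from Lrp2, at 3860 CPM in aged mouse 1 and 9400 to 11200 CPM in young mice. In aged mouse 1 Slc6a19 lay above the young range, Slc5a12 and Slc22a8 within it and the other markers below it. Values without this mouse are given beside those that it moves by over 1.5 times. Among the 13944 genes tested with edgeR's quasi-likelihood test, 2.06% had an adjusted p below 0.05 together with a change of over 1.5-fold, and 2.95% met the first criterion alone.

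Of 20 V-ATPase subunit genes tested, 2 passed the adjusted p, both lower in aged cortex, and 19 had estimates below 0 and Atp6v0a4 alone lay above it, whereas 45.9% of all genes tested had estimates below 0. The median log2 fold change, aged over young, was -0.29 for the V-ATPase genes and 0.03 for all genes, and the individual values ran from -0.52 to 0.14. In 10 of the 20 genes every aged mouse lay below every young mouse, which held for 10% of all genes. An unadjusted p below 0.05 with a lower level in aged mice was reached by 12 of the 20 and by 12.1% of all genes. Subunits of 1 complex are not independent of each other, and these counts were given no test.

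Without aged mouse 1 the V-ATPase median was -0.22, with 11 genes whose groups did not overlap. When libraries were scaled by their total alone, 17 of 20 estimates were below 0 and 6 genes had every aged mouse below every young mouse. That scaling moved the median of all genes to 0.14 and the V-ATPase median to -0.19. The distance between the medians was -0.33, against -0.32 with the main scaling. The share of all genes with separated groups was not counted without aged mouse 1 or with scaling by total.

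After adjustment over all genes, 2 members fell with age and none rose, against 1.44% of all genes lower and 1.51% higher at the same adjusted p. These were Atp6v0a2 and Atp6v0e2, both in the membrane sector. Neither exceeded a 1.5-fold change, so no member met both criteria. DESeq2 put 8 members past the adjusted p, all lower in aged mice, adding Atp6v1a, Atp6v1c2, Atp6v1h, Atp6v0e, Car4 and Rhbg, but that tool also put more of all genes past it (6.19% of them lower in aged mice). Their levels and the limits of the calls are given with the other V0 genes.

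**Figure D1:**
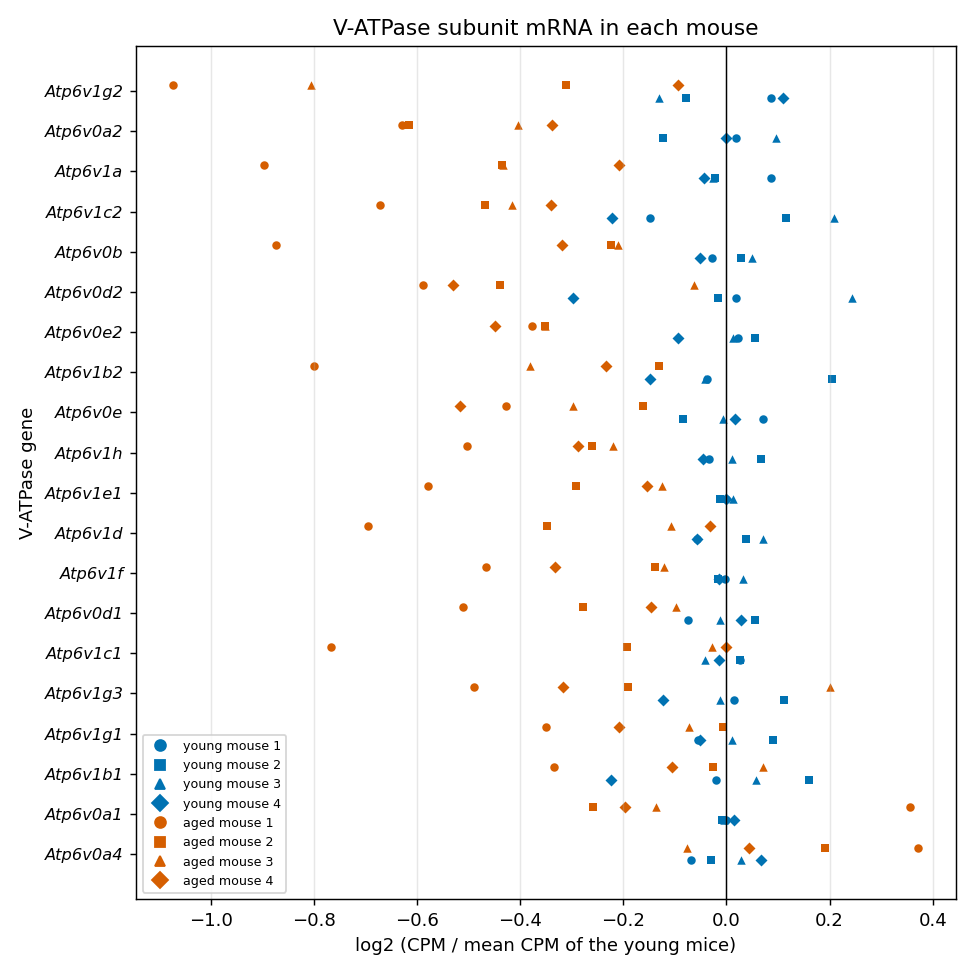
Levels of the 20 V-ATPase genes tested in each mouse, as log2 of the CPM over the mean CPM of the young mice (x axis), one line of points per gene (y axis), with aged mice in orange, young mice in blue and marker shapes for mouse numbers. Aged mouse 1 lies furthest left for most genes and furthest right for Atp6v0a1 and Atp6v0a4, and the orange and blue points do not overlap for 10 genes.

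The V1 sector held 12 genes tested, all with estimates below 0 (45.9% of all genes) and with a median log2 fold change of -0.28. In 5 of them every aged mouse was below every young mouse, against 10% of all genes. None of the 12 passed the adjusted p. Atp6v1a, the single catalytic A subunit, where ATP is hydrolysed, was at 395, 544, 545 and 637 CPM in the aged mice and at 781, 725, 723 and 714 CPM in the young mice. All aged mice were below all young mice, with aged mouse 1 the lowest. The log2 fold change was -0.47 (SE 0.14, adjusted p = 0.0913), and it passed the threshold when aged mouse 1 was left out (-0.35, adjusted p = 0.0485) or aged mouse 4 was left out (-0.57, adjusted p = 0.0388). Of all genes, 3.18% and 4.39% were then lower at the adjusted p. Leaving out any of the other 6 mice gave Atp6v1a an adjusted p of 0.121 to 0.207.

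The B subunit completes the ATP-binding hexamer and exists as the widespread B2 and the intercalated cell form B1. Atp6v1b2 (B2) was at 257, 409, 344 and 381 CPM in aged and 436, 516, 435 and 404 CPM in young mice. The groups overlapped through aged mouse 2 and young mouse 4, and the log2 fold change was -0.37 (SE 0.15, adjusted p = 0.171), or -0.24 without aged mouse 1. Atp6v1b1 (B1) was at 71.0, 87.9, 94.0 and 83.2 CPM in aged and 88.3, 100, 93.2 and 76.7 CPM in young mice. These ranges overlapped broadly, with a log2 fold change of -0.09 (SE 0.11, adjusted p = 0.625) that became 0.02 when libraries were scaled by total alone and -0.02 without aged mouse 1.

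Subunits C and H govern the reversible joining of V1 to V0. Atp6v1h, the only H subunit gene, was at 89.6, 106, 109 and 104 CPM in aged and 124, 133, 128 and 123 CPM in young mice. The gap between the groups was clear, with a log2 fold change of -0.31 (SE 0.08, adjusted p = 0.0683), and of -0.25 (adjusted p = 0.0485) without aged mouse 1. For Atp6v1c2, the restricted C isoform, the aged mice gave 13.9, 16, 16.6 and 17.5 CPM and the young mice 20, 24.0, 25.6 and 19.0 CPM. The groups did not overlap here either, and the log2 fold change was -0.47 (SE 0.12, adjusted p = 0.073). Atp6v1c1, the widespread form, was at 62.9, 93.6, 105 and 107 CPM in aged and 109, 109, 104 and 106 CPM in young mice. Aged mice 3 and 4 were within the young range, and the log2 fold change was -0.22 (SE 0.15, adjusted p = 0.389), or -0.07 without aged mouse 1.

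Subunits E and G form the outer stalks that hold the catalytic head still. Atp6v1e1 was at 146, 178, 200 and 196 CPM in aged and 218, 216, 220 and 218 CPM in young mice. The young mice were close together and all above the aged mice, with a log2 fold change of -0.28 (SE 0.10, adjusted p = 0.144). Atp6v1g1, the widespread G subunit, was at 69.9, 88.7, 84.7 and 77.1 CPM in aged and 85.7, 94.8, 89.8 and 86.0 CPM in young mice, with a log2 fold change of -0.15 (SE 0.09, adjusted p = 0.3), or -0.09 without aged mouse 1. Its counts are uncertain because 87.6% of the 100-nt windows of its transcript had a copy elsewhere in mm9 with at least 98% identity. Atp6v1g3, the G isoform of intercalated cells, was at 23.4, 28.8, 37.8 and 26.4 CPM in aged and 33.2, 35.5, 32.6 and 30.2 CPM in young mice. Aged mouse 3 had the highest value of all, and the log2 fold change was -0.18 (SE 0.14, adjusted p = 0.454). It was -0.08 without aged mouse 1 and -0.33 without aged mouse 3. Atp6v1g2, known mainly from neurons, was scarce at 1.38 to 2.72 CPM in aged and 2.65 to 3.13 CPM in young mice, with a log2 fold change of -0.52 (SE 0.24, adjusted p = 0.212).

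The rotor subunits D and F transmit rotation to V0. Atp6v1f was at 64.7, 81.3, 82.3 and 71.0 CPM in aged and 89.3, 88.4, 91.5 and 88.6 CPM in young mice. All aged values were below the young ones, with a log2 fold change of -0.26 (SE 0.09, adjusted p = 0.122). Atp6v1d ranged from 75.8 to 120 CPM in aged and from 118 to 129 CPM in young mice, with a log2 fold change of -0.28 (SE 0.14, adjusted p = 0.235), or -0.16 without aged mouse 1. Atp6v1e2, an E isoform of testis, had 3 read pairs in all aged libraries and 2 in all young ones and was not tested.

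In the V0 sector 7 of 8 genes tested had estimates below 0 (45.9% of all genes), and the median log2 fold change was -0.36. Every aged mouse was below every young mouse in 5 of the 8, against 10% of all genes. The a subunit anchors the pump in its membrane and has isoforms for different compartments. Atp6v0a2, the a2 isoform known from the Golgi and endosomes, was at 52.6, 53.1, 61.5 and 64.3 CPM in aged and 82.4, 74.7, 87.0 and 81.3 CPM in young mice. Every aged mouse was well below every young mouse. Its mRNA fell from 81.4 ± 5.08 to 57.9 ± 5.92 CPM (SD, n = 4). The fitted change was -28.8%, or -0.49 on the log2 scale (SE 0.09, adjusted p = 0.0372, edgeR quasi-likelihood test). It ranked 159 by p among all genes tested.

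The e subunit is a small membrane protein of V0. Atp6v0e2 was at 22.6, 23.0, 23.0 and 21.5 CPM in aged and 29.8, 30.5, 29.6 and 27.5 CPM in young mice. The aged mice were nearly alike and lay below the young range. Expression fell from 29.3 ± 1.29 to 22.5 ± 0.727 CPM (SD, n = 4), which is -0.38 on the log2 scale (SE 0.07, adjusted p = 0.039, edgeR quasi-likelihood test). Both calls were lost when aged mouse 2, aged mouse 3 or any young mouse was left out, while the log2 fold changes stayed between -0.55 and -0.45 for Atp6v0a2 and between -0.41 and -0.36 for Atp6v0e2. The adjusted p over these omissions was 0.0153 to 0.122 for Atp6v0a2 and 0.0296 to 0.124 for Atp6v0e2. For Atp6v0e2 the call was also lost with scaling by total alone (adjusted p = 0.0824).

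Atp6v0e, the widespread e isoform, was at 61.3, 73.7, 67.1 and 57.6 CPM in aged and 86.6, 77.7, 82.0 and 83.4 CPM in young mice. The groups did not overlap, with a log2 fold change of -0.34 (SE 0.09, adjusted p = 0.0692). Atp6v0b, a subunit of the rotating proteolipid ring, was at 70.1, 110, 111 and 103 CPM in aged and 126, 131, 133 and 124 CPM in young mice. Aged mouse 1 was far below the rest and no aged value reached the young range, with a log2 fold change of -0.39 (SE 0.14, adjusted p = 0.132), or -0.25 without that mouse (adjusted p = 0.0515).

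The d subunit couples the rotor to the ring. Atp6v0d1, the widespread form, was at 72.9, 85.7, 97.1 and 93.9 CPM in aged and 98.6, 108, 103 and 106 CPM in young mice. The groups were separated by a narrow gap, with a log2 fold change of -0.25 (SE 0.10, adjusted p = 0.152). Atp6v0d2, the d isoform found in kidney and osteoclasts, was at 32.3, 35.8, 46.5 and 33.6 CPM in aged and 49.2, 48.0, 57.5 and 39.5 CPM in young mice. Aged mouse 3 overlapped the young range, and the log2 fold change was -0.39 (SE 0.15, adjusted p = 0.144).

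The other a isoforms did not share the lower level of Atp6v0a2 in every mouse. Atp6v0a4, the a4 isoform of intercalated and proximal tubule cells, was at 452, 399, 331 and 360 CPM in aged and 333, 342, 356 and 366 CPM in young mice. Aged mice 1 and 2 were above all young mice and aged mouse 3 below them, with a log2 fold change of 0.14 (SE 0.11, adjusted p = 0.422), or 0.06 without aged mouse 1. Atp6v0a1, the widespread a1 isoform, was at 103, 67.3, 73.2 and 70.2 CPM in aged and 80.4, 80.0, 80.2 and 81.3 CPM in young mice. Here aged mouse 1 was the highest of all mice while the other aged mice were below the young range. The log2 fold change was -0.04 (SE 0.13, adjusted p = 0.877), and it was -0.20 without aged mouse 1 and 0.08 when libraries were scaled by total alone.

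Atp6v0c, which encodes the principal ring subunit, could not be measured, with 4 read pairs in all aged and 2 in all young libraries. Copies of at least 98% identity elsewhere in mm9 covered 93.9% of its 100-nt windows. The pseudogene Atp6v0c-ps2 had no read pairs in either group.

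**Figure D2:**
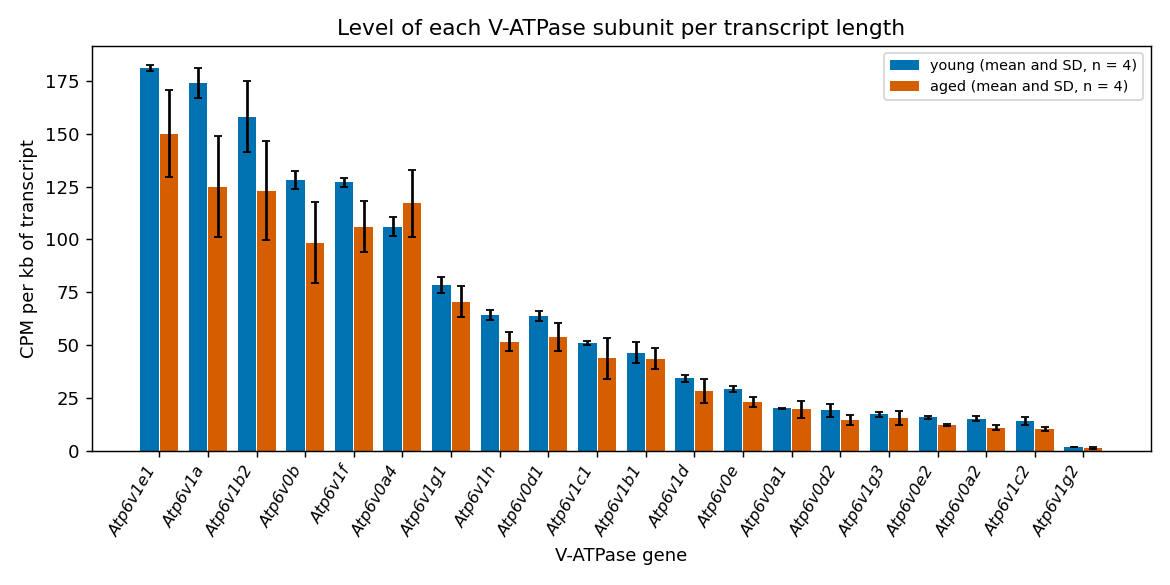
Level of each V-ATPase gene tested in CPM per kb of its transcript (y axis; bars are means and whiskers SDs of 4 mice per group). Atp6v1e1, Atp6v1a and Atp6v1b2 led in young mice at 181, 174 and 158 CPM per kb, Atp6v0a4 exceeded the other a isoforms, and Atp6v1g2 was lowest at 1.90 CPM per kb.

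Per transcript length, the V-ATPase genes formed a wide range of levels. In young mice Atp6v1e1 was at 181 ± 1.36 CPM per kb, Atp6v1a at 174 ± 7.21 CPM per kb and Atp6v1b2 at 158 ± 16.9 CPM per kb (SD, n = 4). These neighbours did not differ beyond their spread. Atp6v0a4 at 106 ± 4.43 CPM per kb stood well above Atp6v0a1 at 20.1 ± 0.143 and Atp6v0a2 at 15.3 ± 0.957 CPM per kb. Among B subunits the order was reversed, with B2 above B1 at 46.5 ± 5.10 CPM per kb. The isoforms described as specialised (7 tested) had a median log2 fold change of -0.38 and 2 genes without overlap, the widespread isoforms (8 tested) -0.26 and 4 genes, and the subunits with a single isoform (5 tested) -0.31 and 4 genes. In the genes without overlap every aged mouse lay below every young mouse, which held for 10% of all genes.

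Ratios of isoforms within a library do not depend on scaling between libraries, so 5 of them were compared by two-sided exact permutation tests, which cannot give a p below 0.0286 with 4 mice against 4. The ratio of Atp6v1b1 to Atp6v1b2 read pairs was 0.277, 0.215, 0.274 and 0.218 in aged and 0.203, 0.194, 0.214 and 0.190 in young mice. Every aged mouse exceeded every young mouse, by a narrow margin for aged mouse 2. The mean log2 ratio was 0.29 higher in aged mice (exact permutation p = 0.0286, the smallest possible, and 0.143 adjusted over the 5 ratios), so the ratio did not pass the adjustment.

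The ratio of Atp6v0a4 to Atp6v0a1 was 4.39, 5.92, 4.52 and 5.13 in aged and 4.13, 4.28, 4.44 and 4.5 in young mice. Only aged mouse 1 fell within the young range, and the log2 difference was 0.19 (exact permutation p = 0.114, adjusted p = 0.286). On the log2 scale the ratio of Atp6v1c2 to Atp6v1c1 differed by -0.21 (exact permutation adjusted p = 0.333), or by -0.32 without aged mouse 1. That of Atp6v0d2 to Atp6v0d1 differed by -0.13 (exact permutation adjusted p = 0.5). That of Atp6v1g3 to Atp6v1g1 differed by -0.04, or by 0 without aged mouse 1. With all mice kept, the groups overlapped in each of these ratios.

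With Atp6v0a2 in place of Atp6v0a1, a pair chosen after the values were seen, the ratio of Atp6v0a4 was 8.59, 7.5, 5.38 and 5.60 in aged and 4.03, 4.58, 4.09 and 4.5 in young mice. The groups did not overlap, and the log2 difference was 0.63 (exact permutation p = 0.0286, and 0.0857 adjusted over 6 ratios).

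**Figure D3:**
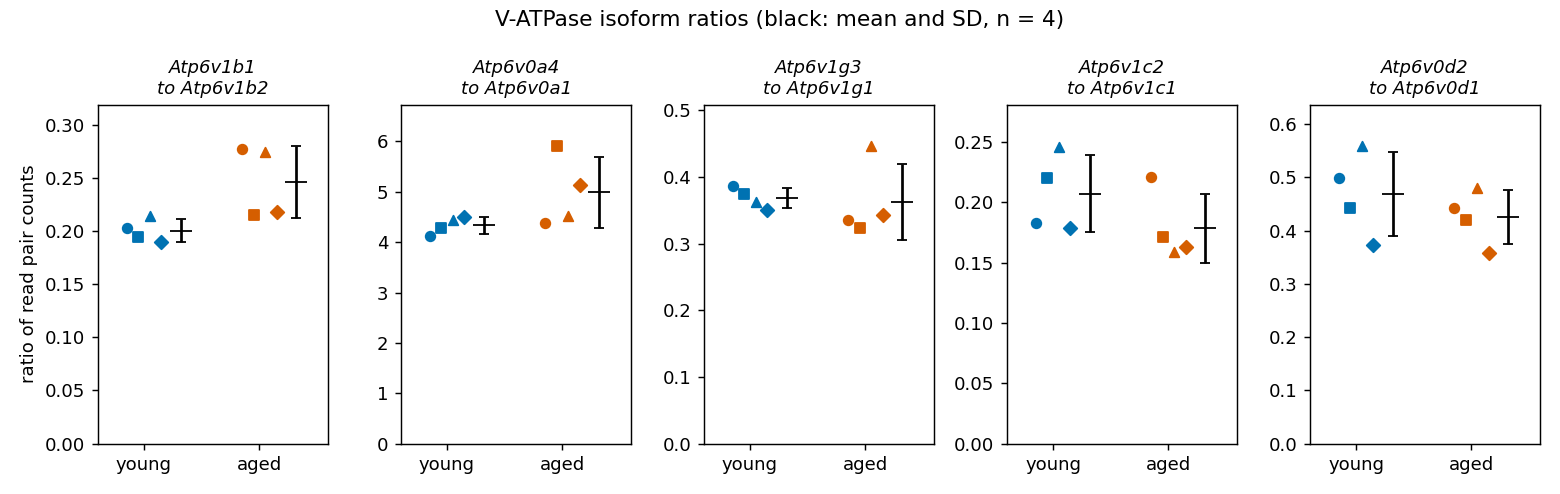
Ratio of read pair counts of a specialised to a widespread isoform (y axis, linear from 0) in young (blue) and aged (orange) mice for 5 V-ATPase subunits, with marker shapes for mouse numbers and black marks for the mean and SD of 4 mice. Groups separate only for Atp6v1b1 to Atp6v1b2, at 0.190 to 0.214 in young and 0.215 to 0.277 in aged mice.

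The promoters of 4 subunit genes are shown to let the reader compare a subunit that changed, the catalytic subunit and the 2 isoforms typical of intercalated cells. RefSeq promoter sequences of GRCm38.p6 matched 30 of the 44 genes. Atp6v0a2 was not among them. Each sequence is the 250 bases before the transcription start, 5′ to 3′ on the strand of the gene. They are Atp6v0e2 (chr6:48537319-48537568, plus strand), Atp6v1a (chr16:44139260-44139509, minus strand), Atp6v1b1 (chr6:83742767-83743016, plus strand) and Atp6v0a4 (chr6:38124587-38124836, minus strand). Capitals mark TCACGTGA, an E-box with flanks of the kind bound by the lysosomal regulator TFEB, or TGTTTAC, a forkhead motif of the class that includes Foxi1, in either orientation.
Atp6v0e2: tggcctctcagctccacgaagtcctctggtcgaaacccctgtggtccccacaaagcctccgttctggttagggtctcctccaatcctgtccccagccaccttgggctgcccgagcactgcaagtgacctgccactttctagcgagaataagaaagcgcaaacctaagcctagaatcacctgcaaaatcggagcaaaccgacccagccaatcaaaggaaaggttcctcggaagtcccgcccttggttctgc
Atp6v1a: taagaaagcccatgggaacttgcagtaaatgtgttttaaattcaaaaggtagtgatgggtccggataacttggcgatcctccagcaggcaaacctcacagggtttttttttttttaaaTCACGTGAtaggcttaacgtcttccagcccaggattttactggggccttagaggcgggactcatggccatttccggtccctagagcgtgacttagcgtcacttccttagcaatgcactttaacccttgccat
Atp6v1b1: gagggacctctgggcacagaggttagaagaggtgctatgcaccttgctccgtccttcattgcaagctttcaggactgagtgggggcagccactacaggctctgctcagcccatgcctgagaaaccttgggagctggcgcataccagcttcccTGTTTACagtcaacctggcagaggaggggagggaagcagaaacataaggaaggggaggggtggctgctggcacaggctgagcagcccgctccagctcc
Atp6v0a4: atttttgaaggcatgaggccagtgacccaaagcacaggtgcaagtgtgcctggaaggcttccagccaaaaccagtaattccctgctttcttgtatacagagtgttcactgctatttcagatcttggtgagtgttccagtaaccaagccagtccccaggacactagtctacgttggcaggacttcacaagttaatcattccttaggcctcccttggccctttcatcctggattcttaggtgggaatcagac

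The E-box with flanks began 132 bases before the start of Atp6v1a, the only matched member with it, and was present in 0.785% of 32851 promoter windows of this length. Its core CACGTG occurred in the windows of Atp6v1a, Atp6v0b and Car6, and in 6.02% of all windows. TGTTTAC or its reverse complement GTAAACA began 98 bases before the start of Atp6v1b1 and was also found for Car5a, against 3.17% of all windows. A match describes the letters of the window and does not show that a factor binds there.

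In mm9, the build of the counts, Atp6v0a2 lies at chr5:125079673-125204824 on the plus strand with 20 exons in its longest annotated transcript, and Atp6v0e2 at chr6:48487568-48491797 on the plus strand with 4 exons. Atp6v1a lies at chr16:44085515-44139818 on the minus strand with 15 exons. All are protein coding, and counts per gene sum over exons and do not separate transcripts.

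Genes that assemble or accompany the pump were described from a list of 16, of which 15 were tested. Their median log2 fold change was -0.06, with 9 lower and 6 higher estimates, and groups without overlap in 3 lower and 1 higher gene. Of all genes tested, 10% were lower in every aged mouse and 8.85% higher. Rnasek, a small membrane protein that associates with the V-ATPase, was the only one past the adjusted p. It was at 72.2, 79.5, 80.7 and 80.9 CPM in aged and 101, 97.2, 103 and 110 CPM in young mice. The aged mice lay well below the young mice, a log2 change of -0.39 (SE 0.07, adjusted p = 0.0372). This call was lost without aged mouse 2, aged mouse 3 or any young mouse, as were those of the other listed genes named as changed, and the Rnasek call was also lost with scaling by total alone. The accessory subunit Atp6ap1 was at 129 to 173 CPM in aged and 192 to 200 CPM in young mice, with a log2 fold change of -0.30 (SE 0.10, adjusted p = 0.115). The other accessory subunit Atp6ap2, the prorenin receptor, had a log2 fold change of 0.06 (SE 0.07, adjusted p = 0.568).

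Carbonic anhydrases had estimates on both sides of 0. Of 16 listed, 13 were tested, with 6 estimates below and 7 above 0, a median log2 fold change of 0.17 and none past the adjusted p. An unadjusted p below 0.05 was reached by Car4 (lower) and by Car8 and Car9 (higher). Of all 13944 genes tested, 1685 were lower and 1872 higher at this p.

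Among the membrane-bound enzymes, Car4, which is anchored at the surface of proximal tubule and thick limb cells and serves bicarbonate recovery, was at 61.7, 115, 100 and 186 CPM in aged and 188, 184, 215 and 209 CPM in young mice. Aged mouse 4 was within the young range and the other aged mice were far below it. Car4 had a log2 fold change of -0.78 (SE 0.28, adjusted p = 0.128). It was -0.57 without aged mouse 1 (adjusted p = 0.108), in which most proximal tubule markers were also low. The part of those markers in the Car4 result was not tested. Without aged mouse 4 the log2 fold change was -1.11 (adjusted p = 0.0187), and DESeq2 gave -0.79 (adjusted p = 0.0432).

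Car12, a basolateral enzyme, was at 91.1, 312, 314 and 308 CPM in aged and 283, 395, 330 and 261 CPM in young mice. Aged mouse 1 was far below all others, which were intermixed. The log2 fold change of -0.31 (SE 0.35, adjusted p = 0.593) became -0.03 without that mouse. Car15, a membrane enzyme of the tubule, ranged from 52.0 to 111 CPM in aged and 71.5 to 100 CPM in young mice, with a log2 fold change of -0.22 (SE 0.23, adjusted p = 0.555), which was -0.08 without aged mouse 1 and -0.47 without aged mouse 2. Car14, another membrane enzyme of the proximal tubule, ranged from 61.1 to 83.4 CPM in aged and 47.2 to 69.9 CPM in young mice, with a log2 fold change of 0.28 (SE 0.14, adjusted p = 0.236). Car9, the hypoxia-responsive membrane enzyme, was at 15.9, 8.98, 9.03 and 20 CPM in aged and 7.03, 8.67, 8.02 and 10.5 CPM in young mice. Aged mice 1 and 4 were above all young mice and the other aged mice were within their range, with a log2 fold change of 0.66 (SE 0.27, adjusted p = 0.176), or 0.41 without aged mouse 4.

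**Figure D4:**
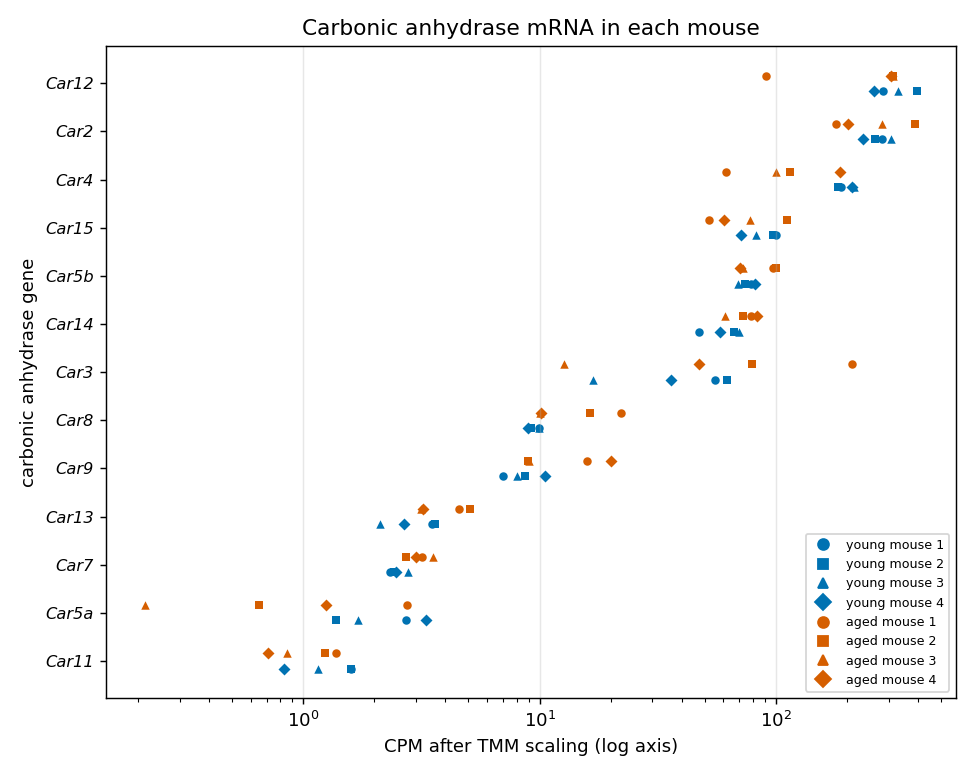
CPM of the 13 carbonic anhydrase genes tested (x axis, logarithmic) in each mouse, aged in orange and young in blue, with marker shapes for mouse numbers and genes ordered by level (y axis). Car12 and Car4 show aged mouse 1 apart at 91.1 and 61.7 CPM, and Car8 is the gene with every aged mouse above every young mouse.

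Of the cytosolic enzymes, Car2, the fast isoform of proximal tubule and intercalated cells, was at 179, 387, 280 and 201 CPM in aged and 280, 262, 306 and 233 CPM in young mice. The aged mice spread on both sides of the young range, and the log2 fold change was -0.05 (SE 0.23, adjusted p = 0.912), which was 0.07 under scaling by total alone, 0.10 without aged mouse 1 and -0.30 without aged mouse 2. Car7 had a log2 fold change of 0.31 (SE 0.17, adjusted p = 0.269) and Car13 one of 0.42 (SE 0.25, adjusted p = 0.301), both at low levels. Per transcript length, Car4 and Car2 were the most abundant in young mice at 158 ± 12.2 and 151 ± 17.2 CPM per kb (SD, n = 4), which did not differ beyond their spread, followed by Car12 at 85.4 ± 16 CPM per kb.

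Car3, an enzyme abundant in fat and muscle, was at 210, 79.4, 12.7 and 47.2 CPM in aged and 55.5, 61.9, 16.8 and 35.9 CPM in young mice. Aged mice 1 and 2 were above all young mice and aged mouse 3 was below them, with a log2 fold change of 1.04 (SE 0.72, adjusted p = 0.38) that was 0.12 without aged mouse 1. Of 7 adipocyte markers 6 were tested, all had estimates above 0 and an unadjusted p below 0.05, and none passed the adjusted p. Their summed level was 528, 146, 38.7 and 83.2 CPM in aged and 39.6, 34.2, 25.6 and 66.7 CPM in young mice. Aged mice 1 and 2 were highest in these sums as they were for Car3, and Plin1 and Lep were at 0 in young mouse 3. Of 6 skeletal muscle markers 1 was tested, and their sums were 0.846 to 1.23 CPM in aged and 0.680 to 0.886 CPM in young mice. The part of either list in the Car3 values was not tested.

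The mitochondrial enzymes differed in level. Car5b, the form made in many tissues, ranged from 70.8 to 99.8 CPM in aged and 69.4 to 81.5 CPM in young mice, with a log2 fold change of 0.17 (SE 0.13, adjusted p = 0.429), or 0.10 without aged mouse 1. Car5a, the liver form, was scarce, with a log2 fold change of -0.88 (SE 0.62, adjusted p = 0.385). This value was poorly determined, at -1.68 without aged mouse 1, -0.53 without aged mouse 3 and -1.75 with limma-voom. It was the member nearest the count limit among those kept, with 56, 10, 4 and 23 read pairs in aged and 44, 26, 25 and 56 in young mice.

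Car8 and Car11 belong to the carbonic anhydrase family but lack the activity. Car8 was at 22.1, 16.3, 10 and 10.1 CPM in aged and 9.92, 9.20, 9.93 and 8.92 CPM in young mice. Every aged mouse was above every young mouse, as in 8.85% of all genes, but aged mice 3 and 4 exceeded them by little. The log2 fold change was 0.63 (SE 0.25, adjusted p = 0.161), and it was 0.35 without aged mouse 1. Car11 ranged from 0.708 to 1.38 CPM in aged and 0.827 to 1.6 CPM in young mice, with a log2 fold change of -0.31 (SE 0.31, adjusted p = 0.549), or -0.49 without aged mouse 1. The remaining family members were at or near the floor. Car1, the erythrocyte enzyme, had 2 read pairs in each group, the secreted Car6 had 2 in aged and 0 in young libraries, and Car10 had 0 in both.

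Atp4a, the alpha subunit of the gastric H,K-ATPase, was at 60.1 ± 14.7 CPM in aged and 50.9 ± 7.11 CPM in young mice (SD, n = 4). The groups overlapped, and the log2 fold change was 0.24 (SE 0.18, adjusted p = 0.426), or 0.38 without aged mouse 1. Atp12a, the non-gastric form that collecting duct cells use to recover potassium, was the untested member nearest the count limit, with 14, 6, 4 and 2 read pairs in aged and 6, 22, 6 and 5 in young mice.

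Foxi1, the forkhead factor needed for intercalated cell identity, was at 25.6 ± 4.04 CPM in aged and 25.4 ± 4.94 CPM in young mice (SD, n = 4), a difference of 0.01 on the log2 scale (SE 0.16, adjusted p = 0.961) that ran from -0.11 to 0.11 when single mice were left out. Of the ammonia channels, Rhbg, on the basolateral side, was at 17.3, 21.5, 28.4 and 22.5 CPM in aged and 30.9, 31.3, 36.3 and 27.2 CPM in young mice. Aged mouse 3 overlapped with young mouse 4 and the other aged mice were below all young mice. For Rhbg the log2 fold change was -0.49 (SE 0.15, adjusted p = 0.0998). Rhcg, the channel found mainly on the apical side, ranged from 55.1 to 98 CPM in aged and 72.8 to 93.2 CPM in young mice, with a log2 fold change of -0.17 (SE 0.17, adjusted p = 0.529). That value was -0.06 without aged mouse 1 and -0.34 without aged mouse 3.

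**Figure D5:**
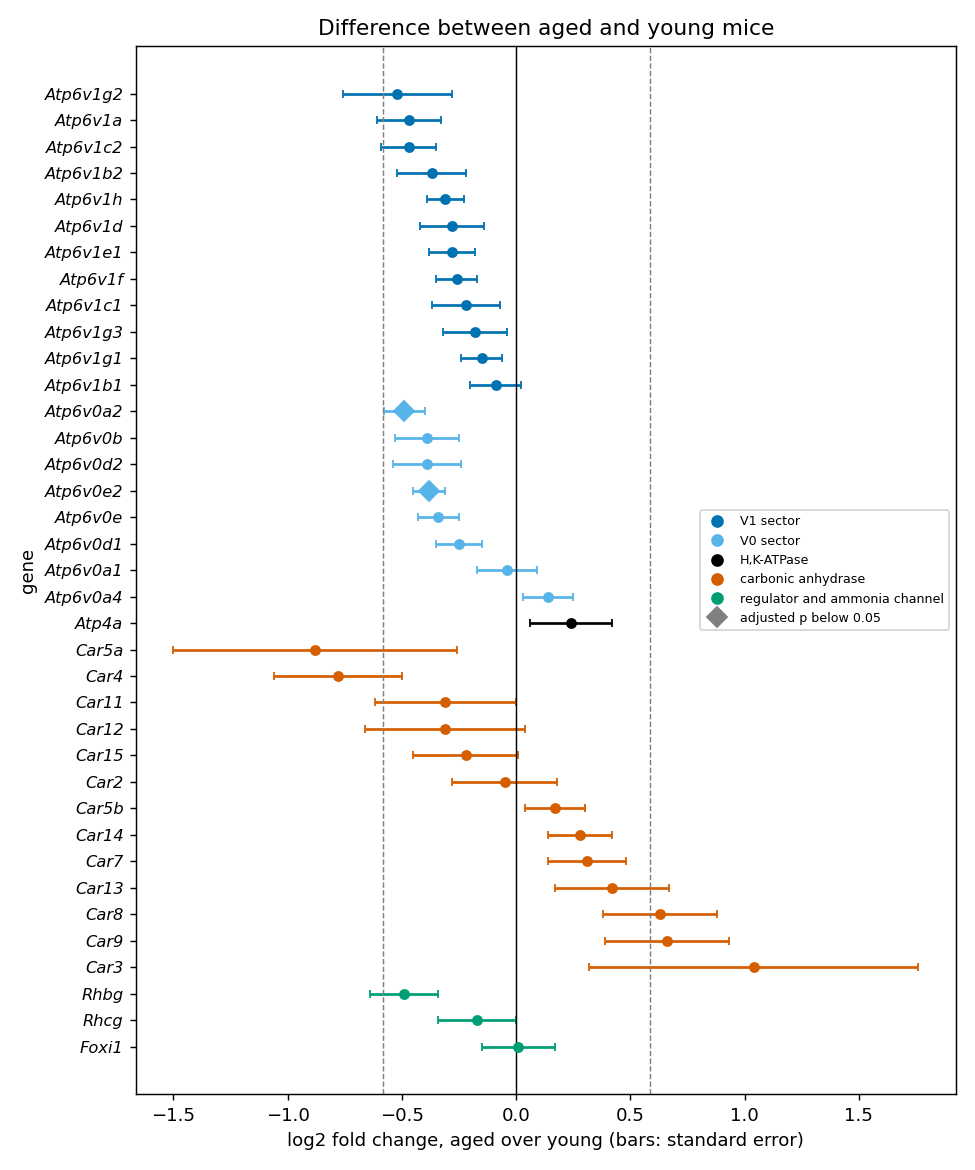
Log2 fold change, aged over young, of the 37 members tested (x axis, points with standard errors as bars, dashed lines at a 1.5-fold change), colored by family, with diamonds for an adjusted p below 0.05. V-ATPase genes lie left of 0 except Atp6v0a4 at 0.14, carbonic anhydrases lie on both sides from -0.88 to 1.04, and the diamonds are Atp6v0a2 at -0.49 and Atp6v0e2 at -0.38.

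Intercalated cells carry the most V-ATPase in the plasma membrane, and all 19 of their listed markers were tested. Of these 11 had estimates below and 8 above 0, none passed the adjusted p, and the median log2 fold change was -0.13. An unadjusted p below 0.05 with a lower level in aged mice, reached by 12.1% of all genes, was found for 3 markers. They were Slc4a8 (log2 fold change -0.35), Hepacam2 (-0.45) and Bsnd (-0.28). These 3 were named after their values were seen. The summed level of the markers was 2010, 1350, 1640 and 1310 CPM in aged and 1480 to 1630 CPM in young mice, and much of it came from Tfcp2l1, at 621 to 1160 CPM in aged and 749 to 832 CPM in young mice. The chloride-bicarbonate exchangers that mark the alpha and beta types, Slc4a1 and Slc26a4, had log2 fold changes of -0.13 (SE 0.18, adjusted p = 0.673) and -0.30 (SE 0.19, adjusted p = 0.34). The part of cell numbers in the V-ATPase values was not tested.

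Other acid and bicarbonate transport genes had a median log2 fold change of 0.01 over 15 genes. Slc9a8, a sodium-proton exchanger of the Golgi and apical membrane, fell with a log2 change of -1.37 (SE 0.26, adjusted p = 0.039), from 148 to 254 CPM in young to 52.2 to 118 CPM in aged mice. Every aged mouse was below every young mouse. No gene of this list passed the adjusted p with a higher level in aged mice.

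The lysosome, which the V-ATPase acidifies, was followed through 26 genes, with 14 estimates below and 12 above 0 and a median log2 fold change of -0.07. None of them passed the adjusted p with a higher level in aged mice. The membrane protein Lamp1 was at 807 to 1040 CPM in aged and 1160 to 1230 CPM in young mice, with a log2 fold change of -0.29 (SE 0.11, adjusted p = 0.148). The summed level of the list was 6540 to 7260 CPM in aged and 7480 to 8050 CPM in young mice, so that every aged mouse was below every young mouse in the sum. Much of the sum came from Psap, Lamp1 and Lamp2. Taken singly, 5 of the 26 genes had every aged mouse below every young mouse, against 10% of all genes.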

How the data were processed

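Per the labels and the study's methods, RNA of 8 mouse renal cortices was sequenced as stranded read pairs. The authors aligned them to mm9 with TopHat2, used HTSeq to count pairs on RefSeq genes with regard to strand, and deposited raw counts per gene, a table per library. A joint table with the same values was not used. Library sizes excluded the 5 closing lines of a table, which hold pairs assigned to no gene. Pairs on no gene made up 20% to 29.9% and pairs without a unique place 34.3% to 39.1% of each table's sum. No 2 libraries were duplicates (lowest chi-square per gene between libraries 9.26). The floors cover counting error only, while the SEs and SDs include variation between mice.

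Groups came from the labels. Counts were tested in R 4.3.3 with edgeR 4.0.16 (quasi-likelihood, TMM, filterByExpr with a minimum count of 10, no covariate), with Benjamini-Hochberg adjustment over all 13944 genes tested, in place of the DESeq of the study, which was not run. The SE is the log2 fold change over the square root of F. Isoform ratios, with 0.5 added to each count, were tested over all 70 orders of the mice. Library, cage and dissection batches are not given in the sources used here. The p-values set the difference between the groups against variation between these mice. Coordinates, transcript lengths and copies (BLAST 2.17.0 at 98% identity over 100 nt, run from Python 3.11.15) came from the GENCODE annotation of mm9, and promoters from RefSeq. Genes with close copies lose pairs that have no unique place. The tests were first tested on simulated data.

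The members and gene lists were chosen with earlier results of these data known. Every member with at least 10 counts in 4 or more libraries is named, with values per mouse for members with an unadjusted p below 0.05, isoforms in ratios and the 3 most abundant carbonic anhydrases. From the lists, genes past the adjusted p are named, apart from some that are not reported here, with Slc4a1, Slc26a4, Atp6ap1, Atp6ap2 and Lamp1. Listed genes were also matched by older symbols, such as Emr1 for Adgre1. Results were recomputed with upper-quartile scaling, size factors from DESeq2, library size only, DESeq2 1.42.0, limma-voom (limma 3.58.1) with quality weights, other filters on low counts, the replicate block and leaving out each mouse. The ratio to Atp6v0a2 and the count of separated V-ATPase genes without aged mouse 1 were added after seeing the data.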

Additional observations from a re-analysis of the deposited data

Results flagged for a closer look

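In 3 of 84 groups of 4 mice, 1 mouse stood far from the others, where chance gives about 4.2 such groups (about 1 in 20). Aged mouse 1 was the lowest for Car12, with a gap to the next mouse of 0.972 of the group's range. The same mouse was the highest for Atp6v0a1, with a gap of 0.834 of the range. Young mouse 1 was the highest for Atp6v1a, with a gap of 0.837 of the range.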

How the results depend on the processing

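The number of members past the adjusted p was 2 by edgeR with TMM. It was 1 with library size only, 8 with DESeq2, 6 with limma-voom and 0 to 4 when a mouse was left out, with 4 without aged mouse 1 or 4 and 0 without aged mouse 2 or 3 or any young mouse. Over all genes the calls were 817 and 1102 without aged mouse 1 or 4, 150 and 128 without aged mouse 2 or 3, and 8 to 35 without a young mouse. All members called by any of these had lower estimates in aged mice. The number also past 1.5-fold was 0, and it was 1 with DESeq2, 1 with limma-voom and 0 to 1 over the omissions. The 6 listed genes became 22 with DESeq2, 14 with limma-voom and 0 to 14 over the omissions. In all genes, calls at the adjusted p numbered 411 with edgeR, 1685 with DESeq2 and 898 with limma-voom, and the cause was not tested. Same-numbered deviations correlated weakly, at 0.21, 0.04, 0.20 and -0.03. Aged mice 1, 2 and 3 correlated best with the young mouse of their own number, and aged mouse 4 did not. Correlations this weak cannot decide whether replicate numbers pair the mice. With the replicate block, 0 members and 0 listed genes passed (132 of all genes). Signs turned only for values near 0. The log2 fold change of Atp6v0a1 was 0 with upper-quartile scaling, 0.08 with library size only and -0.20 to 0.03 over the omissions. That of Atp6v1b1 was 0.02 with library size only. Car2 gave 0.07 with library size only, 0.02 with limma-voom and -0.30 to 0.10 over the omissions, and Foxi1 -0.11 to 0.11. The ratio of Atp6v1g3 to Atp6v1g1 differed by -0.14 to 0.01 over the omissions. When a mouse was left out, no isoform ratio compared had an adjusted exact permutation p below 0.143. The ratio of Atp6v1b1 to Atp6v1b2 had this value whichever aged mouse was left out. Among the members tested, depth limits Car5a and Car11 most, with 4 to 56 and 13 to 30 read pairs per library. Atp6v1g2, Car7 and Car13 also had few, at 28 to 53, 38 to 66 and 31 to 93 read pairs. The other members tested had more in every library.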

Other observations

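Among macrophage markers, which were listed because these cells carry many lysosomes and V-ATPase pumps, 8 of 9 were tested, 1 with an estimate below and 7 above 0. Gpnmb, a lysosomal membrane glycoprotein, rose with a log2 change of 2.67 (SE 0.57, adjusted p = 0.046, edgeR quasi-likelihood test), from 0.118 to 0.264 CPM in young to 0.588 to 2.41 CPM in aged mice. The young libraries held 3, 5, 2 and 2 read pairs, at or below the floor of 3 pairs in 3 of 4 mice, so the size of this change is poorly determined. Csf1r, the receptor for the macrophage growth factor, fell with a log2 change of -1.0 (SE 0.22, adjusted p = 0.0472), from 47.7 to 75.3 CPM in young to 23.9 to 41.7 CPM in aged mice. Both calls were lost when aged mouse 2, aged mouse 3 or any young mouse was left out. The summed level of the list overlapped between the groups, at 87.2 to 189 CPM in aged and 106 to 159 CPM in young mice.

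The other lists gave no gene past the adjusted p. Thick ascending limb markers had 6 of 6 estimates below 0 and a median log2 fold change of -0.24. Markers of the distal convoluted and connecting tubule had 4 of 6 below 0 (median -0.46), those of principal cells 5 of 8 (median -0.17), those of proximal tubule 6 of 10 (median -0.06), those of endothelium 1 of 6 (median 0.05) and those of erythroid cells 2 of 3 tested (median -0.26).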
